A study of Mus musculus with 14 samples.

Results

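The 10 Toll-like receptor genes followed through lymph-node dendritic cells sorted by contact with CD4 T cells were Tlr1, Tlr2, Tlr3, Tlr4, Tlr6, Tlr7, Tlr8, Tlr9, Tlr11 and Tlr13. They were chosen by gene symbol from a table of RSEM expected counts and are 10 of its 23420 genes. Polyadenylated RNA of 150 sorted cells per library was read by Smart-seq2, a full-length cDNA method, in 14 libraries. Biotin-positive dendritic cells (6 libraries) were set against biotin-negative dendritic cells (6 libraries), and both against dendritic cells of Cd40-null mice (2 libraries).

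Contact was marked with LIPSTIC, a method that lets a cell bearing sortase A attach biotin to a glycine tag on a cell it touches. In both biotin-sorted groups the recipients and the transferred peptide-pulsed dendritic cells carried the tag on CD40 (Cd40G5/G5, given as G5-Cd40+/+ in the genotype label), and the transferred OT-II CD4 T cells carried sortase on CD40 ligand (CD40lgSrtA/Y CD4-Cre). The Cd40-null group (Cd40-/-) was given dendritic cells and OT-II T cells that were both wild type, so its genotype and its transferred cells differ together, and its cells were not split by biotin. All mice were C57BL/6, and all received OVA peptide-pulsed cells. Each footpad received 500000 peptide-pulsed dendritic cells, then 300000 T cells were given intravenously 18 hours later. The biotin substrate (300 nmol per footpad) followed at 46 hours, and cells were sorted from popliteal lymph nodes at 48 hours. Those sequenced were endogenous, high in MHC class II, positive for CD11c and CD11b and without XCR1. Nothing in the labels states that the libraries represent separate mice. The p-values reflect only how far these samples spread, which may be technical.

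Toll-like receptors recognise conserved microbial molecules and signal through the adaptors MyD88 and TRIF to NF-kB and interferon regulatory factors. TLR2 pairs with TLR1 or TLR6 at the cell surface to bind lipoproteins, and TLR4 binds lipopolysaccharide there. TLR3, TLR7, TLR8, TLR9, TLR11 and TLR13 act in endosomes, where they bind nucleic acids or, for mouse TLR11, the profilin of protozoan parasites, and the chaperone UNC93B1 carries endosomal receptors out of the endoplasmic reticulum.

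The neighbours Tlr1 and Tlr6 on chromosome 5 share coding sequence, which bears on how far their counts can be told apart. Among 66 pairs of the 12 annotated receptor genes Tlr1 to Tlr9 and Tlr11 to Tlr13, only this pair shared any 38-base word of coding sequence, 38 bases being the read length. They shared 541 words, 23.0% of those of Tlr1 and 22.7% of those of Tlr6. The longest identical run, 229 bases, is given once in lower case because every base is shared. It is coding base 1468 onwards in Tlr1 (GRCm38, minus strand, chr5:64925537-64925765) and coding base 1507 onwards in Tlr6 (minus strand, chr5:64953828-64954056).
Tlr1 and Tlr6 shared run: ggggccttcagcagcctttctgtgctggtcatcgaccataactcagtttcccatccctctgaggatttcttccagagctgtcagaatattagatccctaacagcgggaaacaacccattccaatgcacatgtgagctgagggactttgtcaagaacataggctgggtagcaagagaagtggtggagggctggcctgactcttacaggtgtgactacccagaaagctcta

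The 250 bases before the annotated start are shown for the receptors on which the comparison turns, Tlr11 and Tlr1, and for Tlr13, which was not called. They come from RefSeq on GRCm38.p6, run 5′ to 3′ on the gene's strand, and carry in capitals the matches to 4 motifs searched on both strands. The NF-kB motif was GGG and CC with 5 bases of any kind between them, and the interferon-stimulated response element core was GAAA repeated after 2 bases of any kind. The AP-1 motif was TGANTCA and the Ets core AGGAAG. The windows are chr14:50357664-50357913 on the plus strand for Tlr11, chr5:64933559-64933808 on the minus strand for Tlr1, and chrX:106143025-106143274 on the plus strand for Tlr13.
Tlr11: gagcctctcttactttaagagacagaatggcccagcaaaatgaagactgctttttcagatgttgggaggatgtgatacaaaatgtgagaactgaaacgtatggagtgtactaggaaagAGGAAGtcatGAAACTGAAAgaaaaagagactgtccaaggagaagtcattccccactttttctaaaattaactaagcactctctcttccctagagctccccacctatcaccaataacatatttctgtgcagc
Tlr1: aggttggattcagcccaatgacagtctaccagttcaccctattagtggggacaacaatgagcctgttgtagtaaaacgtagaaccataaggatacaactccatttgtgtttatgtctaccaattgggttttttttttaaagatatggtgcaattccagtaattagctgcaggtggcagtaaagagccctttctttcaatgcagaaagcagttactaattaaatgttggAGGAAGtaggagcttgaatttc
Tlr13: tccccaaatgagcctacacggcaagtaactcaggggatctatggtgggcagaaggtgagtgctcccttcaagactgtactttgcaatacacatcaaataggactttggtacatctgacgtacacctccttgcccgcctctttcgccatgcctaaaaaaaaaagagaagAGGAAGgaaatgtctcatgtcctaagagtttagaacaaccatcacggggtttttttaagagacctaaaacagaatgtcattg

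The Tlr11 window held 1 interferon-stimulated response element core, 122 bases before the start, and 1 Ets core, 132 bases before it. The Tlr1 and Tlr13 windows held 1 Ets core each, 22 and 82 bases before the start, and a second annotated Tlr1 window held no match. Of 32851 windows of the same length, 2.98% held the response element core, 29.5% the Ets core, 45.8% the NF-kB motif and 6.75% the AP-1 motif. RefSeq windows were matched for 8 of the 10 receptors, Tlr4 and Tlr7 being named only. Tlr6 had 2 overlapping response element cores and 1 Ets core in one window and 1 NF-kB match in the other. Tlr2 had 2 overlapping NF-kB matches and 1 Ets core. Tlr3 had 2 NF-kB matches, Tlr9 had 1 AP-1 match and 1 Ets core, and Tlr8 had 0 matches.

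Libraries held 14518099 to 33260704 counts. Genes with a count numbered 13090 to 13455 in biotin-positive, 14225 to 15742 in biotin-negative and 13113 to 13596 in Cd40-null libraries. The ribosomal RNA precursor Rn45s took 15.05% to 19.5% of counts in biotin-positive, 19.6% to 21.5% in biotin-negative and 18.3% to 20.7% in Cd40-null libraries. Cd40 stood at 1062 ± 163 CPM in biotin-positive (SD, n = 6), 511 ± 78.7 CPM in biotin-negative (SD, n = 6) and 63.7 ± 14.7 CPM in Cd40-null libraries (SD, n = 2), CPM being counts scaled to 1000000 per TMM-scaled library. All 8 markers shared by dendritic cells were detected in every group, but their levels were not all alike. Between the biotin groups, edgeR called Fscn1 and Ccl22 higher and Itgax, H2-Ab1 and Cd74 lower in biotin-positive libraries. Over all genes tested, 3.7% were called higher and 4.05% lower.

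Of the receptors, 6 (Tlr1, Tlr2, Tlr6, Tlr9, Tlr11 and Tlr13) had counts in all 14 libraries, and 4 (Tlr3, Tlr4, Tlr7 and Tlr8) were at 0 in some. Per kilobase of exon, Tlr13 and Tlr2 led in biotin-positive libraries at mean levels of 18.9 and 18.6 CPM per kb, followed by Tlr1 at 11.2, Tlr9 at 8.90, Tlr11 at 5.53 and Tlr6 at 2.40 CPM per kb. In biotin-negative libraries the order was Tlr1 at 22.2, Tlr13 at 20.3, Tlr11 at 18.9, Tlr2 at 17.2, Tlr9 at 14.5 and Tlr6 at 2.80 CPM per kb. Tlr11, the receptor for profilin, stood lower in the order of biotin-positive than of biotin-negative libraries.

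In Cd40-null libraries Tlr1 led at 18.7 CPM per kb, before Tlr11 at 17.2, Tlr13 at 12.6, Tlr2 at 10.3, Tlr9 at 6.91 and Tlr6 at 1.80 CPM per kb. Most neighbours in these orders overlapped from library to library. The ranges stood apart only between Tlr2 and Tlr1 in biotin-positive libraries, between Tlr9 and Tlr6 in biotin-negative libraries, and between Tlr9 and Tlr6 and between Tlr3 and Tlr4 in Cd40-null libraries. The other 4 receptors averaged at most 0.690 CPM per kb, the level of Tlr8 in biotin-negative libraries.

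**Figure D1:**
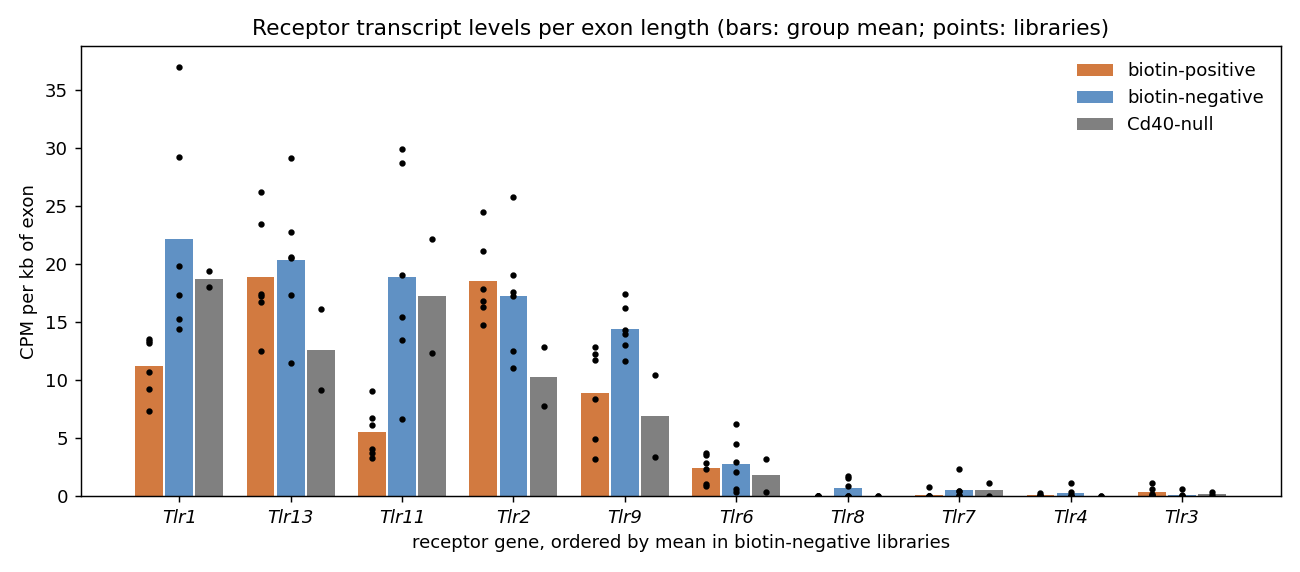
Transcript level per exon length (CPM per kb, y axis) of the 10 receptors (x axis), with bars for group means and points for single libraries of biotin-positive (n = 6), biotin-negative (n = 6) and Cd40-null cells (n = 2). Tlr1, Tlr13, Tlr11, Tlr2 and Tlr9 hold most of the signal, and the Tlr11 bar is at 5.53 CPM per kb in biotin-positive against 18.9 CPM per kb in biotin-negative libraries.

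Setting biotin-positive beside biotin-negative cells addresses what distinguishes dendritic cells labelled through CD40 by T cells from unlabelled ones. Of the 10 receptors, 2 were lower and 0 higher in biotin-positive libraries by edgeR's quasi-likelihood test with Benjamini-Hochberg adjustment over 14217 genes at 0.05. Over all genes tested, 4.05% were called lower, 3.7% higher and 7.75% either way. DESeq2 and limma voom also called 2 receptors lower each, against 6.01% and 4.58% of all genes. The median log2 fold change was -0.84 over the receptors and -0.03 over all genes. Over the receptors it was -0.31 with the monocyte and macrophage marker level as covariate, -0.13 with that of T cell markers, and -0.46 over the 6 receptors left when only the biotin groups were fitted. The median of -0.84 includes 4 receptors at 0 in some libraries. They were Tlr4 (log2 -2.01), Tlr7 (-2.08), Tlr3 (1.53) and Tlr8, which passed the low-count filter only through biotin-negative libraries. The same 4 enter the medians of the later comparisons.

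Tlr11 (chromosome 14, 50357914 to 50363663) was the receptor with the smallest p. In biotin-positive libraries its lowest, median and highest levels were 10.8, 16.8 and 29.7 CPM, against 21.7, 56.5 and 97.9 CPM in biotin-negative libraries. The groups overlapped through 1 low biotin-negative library, replicate 5, and the other 5 lay above every biotin-positive library. Tlr11 was 3.41-fold lower in biotin-positive libraries (log2 -1.77, SE 0.34, adjusted p = 0.00345, edgeR), at means of 18.1 ± 7.28 and 61.8 ± 29.7 CPM (SD, n = 6 each). In such bulk samples, fewer cells with a transcript and less transcript per cell cannot be told apart.

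Tlr1 (chromosome 5, 64924679 to 64933563), the lipoprotein-binding partner of TLR2, was the other receptor called. Its levels were 22.9, 37.3 and 42.4 CPM (lowest, median, highest) in biotin-positive libraries, against 45.1, 58.0 and 115 CPM in biotin-negative libraries. No biotin-positive library reached the lowest biotin-negative one, and Tlr1 was the only receptor whose groups did not overlap, with 0 apart in the other direction. Of all genes tested, 2.41% lay apart lower and 2.6% higher in biotin-positive libraries. It was 1.97-fold lower in biotin-positive libraries (log2 -0.98, SE 0.23, adjusted p = 0.0151, edgeR).

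Because reads of Tlr1 and Tlr6 can be shared, their single levels are uncertain and their sum was also taken. The sum ran from 35.9 to 56.0 CPM in biotin-positive libraries (43.9 ± 7.97, SD, n = 6) and from 47.4 to 126 CPM in biotin-negative libraries (79.5 ± 27.3, SD, n = 6). These ranges overlap, unlike those of Tlr1 alone. Tlr6 (chromosome 5, 64952031 to 64960097) varied widely within groups, at 3.37, 9.62 and 13.6 CPM in biotin-positive against 1.45, 9.20 and 23.0 CPM in biotin-negative libraries. It was not called (log2 -0.22, 95% interval -1.46 to 1.02, adjusted p = 0.906, edgeR).

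Both calls were lost with detected genes or monocyte and macrophage markers as covariate. With T cell markers the Tlr11 call was lost and the Tlr1 call stayed. Calls over all genes also dropped under each. Detected genes lay fully apart between the biotin groups, and as a covariate they left 6 genes called higher and 5 lower, against 7.75% of 14217 without them. With detected genes per library as covariate, Tlr11 stood at log2 -1.59 (adjusted p = 0.426, edgeR) and Tlr1 at -1.65 (adjusted p = 0.239, edgeR). With the mean level of monocyte and macrophage markers as a covariate, which left 57 genes higher and 34 lower, they stood at -2.26 (adjusted p = 0.256, edgeR) and -0.37 (adjusted p = 0.901, edgeR), and with that of T cell markers, which left 318 and 263, the Tlr11 call was lost at log2 -1.52 (adjusted p = 0.0552, edgeR).

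**Figure D2:**
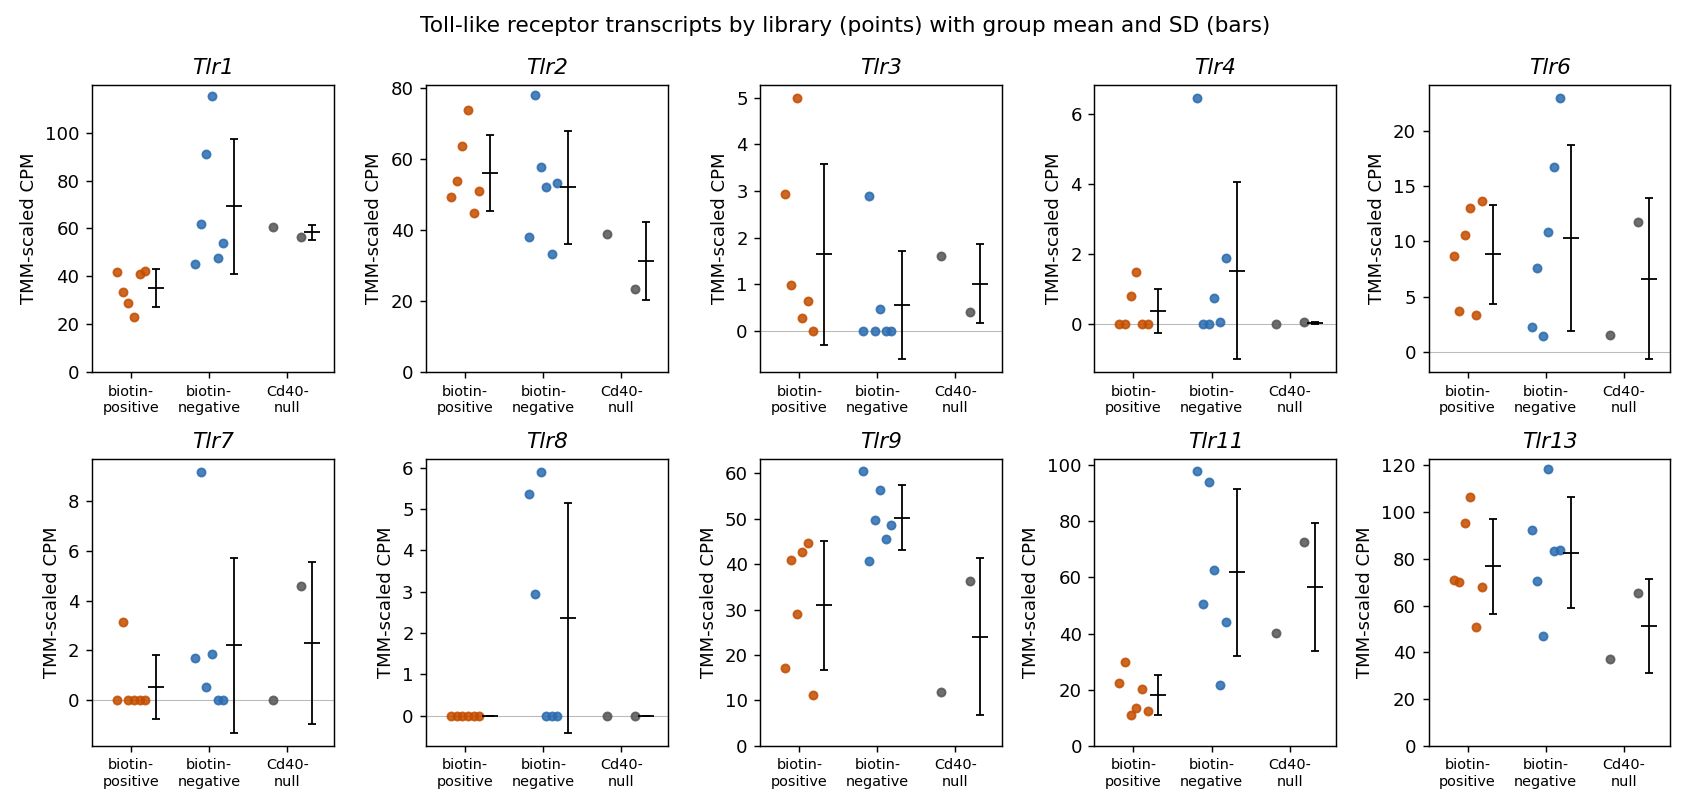
TMM-scaled CPM (y axis, 1 panel per receptor) in each library (points) of biotin-positive, biotin-negative and Cd40-null cells (x axis), with the group mean and SD as a bar beside them. Tlr1 points of biotin-positive libraries reach 42.4 CPM and those of biotin-negative libraries start at 45.1 CPM, and Tlr8 has points above 0 in 3 biotin-negative libraries only.

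Tlr2, the shared partner of the lipoprotein-binding pairs, was not called, whereas Tlr1 was. It ran from 44.6 through a median of 52.3 to 73.8 CPM in biotin-positive libraries and from 33.3 through 52.5 to 77.8 CPM in biotin-negative libraries, and the groups overlapped almost fully. Its difference was small beside its error (log2 0.11, 95% interval -0.30 to 0.51, adjusted p = 0.850, edgeR). Per kilobase, the Tlr1 to Tlr2 ratio of levels was 0.642 ± 0.237 in biotin-positive against 1.33 ± 0.484 in biotin-negative libraries (SD, n = 6 each), and the ranges overlapped (0.300 to 0.890 and 0.767 to 2.14).

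Among the endosomal receptors, Tlr13, which binds bacterial ribosomal RNA, also overlapped almost fully. Its levels were 50.8, 70.4 and 107 CPM (lowest, median, highest) in biotin-positive against 46.8, 83.6 and 119 CPM in biotin-negative libraries (log2 -0.10, 95% interval -0.53 to 0.33, adjusted p = 0.868, edgeR). The Tlr11 to Tlr13 ratio of levels per kilobase was 0.322 ± 0.171 in biotin-positive against 1.05 ± 0.778 in biotin-negative libraries (SD, n = 6 each).

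Tlr9, the receptor for unmethylated CpG DNA, stood at 11.2, 35.0 and 44.7 CPM in biotin-positive against 40.7, 49.3 and 60.6 CPM in biotin-negative libraries. The lowest biotin-positive libraries lay under every biotin-negative one, while the highest overlapped them. Its difference did not pass the adjusted threshold (log2 -0.70, SE 0.32, unadjusted p = 0.0422, adjusted p = 0.214, edgeR).

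The remaining receptors were read in some of the libraries only. Tlr8, an endosomal receptor for RNA, was at 0 in all 6 biotin-positive libraries and stood at 5.36, 2.94 and 5.90 CPM in biotin-negative replicates 1 to 3 and at 0 in the other 3. It passed the low-count filter only through biotin-negative libraries. Set against the limit of 3 counts over the biotin-positive group (0.0261 CPM), its mean was at least 90.7-fold lower in biotin-positive libraries, and it was not called (adjusted p = 0.0545, edgeR). With each library left out in turn, its adjusted p ran from 0.0420 to 0.0964 (edgeR). It was under 0.05 only without biotin-negative replicate 4, 5 or 6 (0.0449, 0.0420 and 0.0442), whose removal raises the group mean because Tlr8 is at 0 in each.

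Tlr7, which binds single-stranded RNA, had counts in 1 of 6 biotin-positive libraries, at 3.12 CPM, and in 4 of 6 biotin-negative libraries, at up to 9.17 CPM. Tlr4, the lipopolysaccharide receptor, had counts in 2 of 6 biotin-positive libraries, at up to 1.49 CPM, and in 4 of 6 biotin-negative libraries, at up to 6.46 CPM. Tlr3, which binds double-stranded RNA, had counts in 5 of 6 biotin-positive libraries, at up to 5.00 CPM, and in 2 of 6 biotin-negative libraries, at up to 2.90 CPM. None of these 3 was called (adjusted p = 0.611, 0.608 and 0.673, edgeR). An exon of Tlr3 is overlapped on the opposite strand by Gm45542, and whether counting used strand is not given in the sources used here.

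The mouse family has 2 further receptors, set beside the others as a pair that the selection did not hold. Tlr12, which pairs with TLR11 in binding profilin, averaged 12.6 ± 5.43 CPM in biotin-positive against 26.2 ± 12.2 CPM in biotin-negative libraries (SD, n = 6 each; log2 -1.05, SE 0.38, adjusted p = 0.110, edgeR). Tlr5, the flagellin receptor, averaged 4.78 ± 3.75 CPM in biotin-positive against 0.472 ± 0.964 CPM in biotin-negative libraries (SD, n = 6 each; log2 3.30, SE 1.36, adjusted p = 0.164, edgeR). Neither was called.

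**Figure D3:**
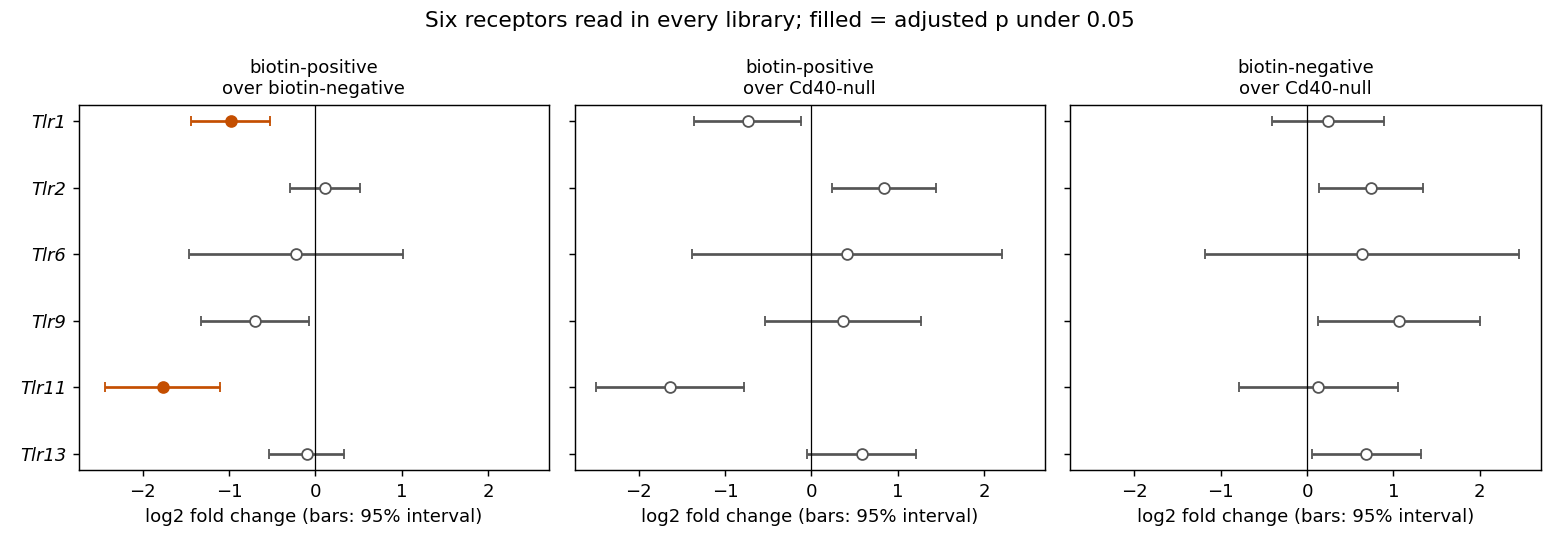
Log2 fold change (x axis, bars of 95% intervals) of the 6 receptors with counts in every library (y axis), for biotin-positive over biotin-negative, biotin-positive over Cd40-null and biotin-negative over Cd40-null libraries; filled points have an adjusted p under 0.05. Only Tlr11 at -1.77 and Tlr1 at -0.98 in the left panel are filled.

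Biotin-positive cells were next set against Cd40-null cells, which lack the receptor that carries the label. By edgeR 0 of 10 receptors were called, against 2.27% of all genes tested (1.22% higher and 1.05% lower). DESeq2 called 1 lower, Tlr11, and limma voom called 0. Of 14217 genes, DESeq2 called 516 higher and 286 lower (2.01%), and limma voom 261 higher and 345 lower (2.43%). The median log2 fold change was 0.39 over the receptors and 0.04 over all genes; without Cd40-null replicate 1 it was -0.11 over the receptors, without Cd40-null replicate 2 it was 0.79, and without biotin-positive replicate 3 it was 0.18. This comparison and the preceding one share the biotin-positive libraries.

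Tlr11 stood at 10.8, 16.8 and 29.7 CPM (lowest, median, highest) in biotin-positive libraries, against 40.4 and 72.6 CPM in Cd40-null libraries, and the groups did not overlap. The difference was log2 -1.64 (SE 0.44, adjusted p = 0.0610, edgeR; adjusted p = 0.0127, DESeq2). With each library left out in turn, the adjusted p ran from 0.0281 to 0.529 (edgeR), the highest without Cd40-null replicate 2, where log2 was -1.16. The adjusted p was under 0.05 only without biotin-positive replicate 2 (0.0429) or biotin-negative replicate 5 (0.0281), which enters here only through the shared spread.

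Tlr1 likewise lay apart, with a highest biotin-positive level of 42.4 CPM against 60.7 and 56.3 CPM in Cd40-null libraries (log2 -0.74, SE 0.32, adjusted p = 0.298, edgeR). Tlr2 lay apart in the other direction, with a lowest biotin-positive level of 44.6 CPM against 38.9 and 23.3 CPM in Cd40-null libraries (log2 0.85, SE 0.31, adjusted p = 0.201, edgeR). Groups that do not overlap were frequent here, since 8.07% of all genes lay lower and 7.81% higher in biotin-positive libraries. Tlr13 (log2 0.58, SE 0.32), Tlr9 (log2 0.37, SE 0.46) and Tlr6 (log2 0.42, SE 0.92) overlapped, and Tlr8 was at 0 in both groups.

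In biotin-negative against Cd40-null cells 0 of 10 receptors were called by edgeR, against 0.317% of all genes tested (0.274% higher and 0.0422% lower). DESeq2 and limma voom called 0 in either direction. Of 14217 genes, DESeq2 called 236 higher and 36 lower (0.253%), and limma voom 40 higher and 15 lower (0.106%). The median log2 fold change was 0.66 over the receptors and 0.06 over all genes; without Cd40-null replicate 1 it was 0.39 over the receptors, and without replicate 2 it was 1.62. Tlr9 lay apart, at 40.7, 49.3 and 60.6 CPM (lowest, median, highest) in biotin-negative against 11.8 and 36.2 CPM in Cd40-null libraries (log2 1.07, SE 0.48, adjusted p = 0.517, edgeR), as did 6.23% of all genes in this direction and 4.47% in the other.

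Tlr11 had overlapping levels in these groups, with means of 61.8 ± 29.7 CPM in biotin-negative (SD, n = 6) and 56.5 ± 22.8 CPM in Cd40-null libraries (SD, n = 2; log2 0.13, 95% interval -0.79 to 1.05, adjusted p = 0.976, edgeR). Tlr1 also overlapped (log2 0.24, 95% interval -0.41 to 0.89). Tlr2 (log2 0.74, adjusted p = 0.485) and Tlr13 (log2 0.69, adjusted p = 0.540, edgeR) had higher means in biotin-negative libraries without a call. Tlr8 was at 0 in both Cd40-null libraries, so that its biotin-negative mean was at least 34.9-fold higher than the limit of 3 counts over that group (0.0678 CPM; adjusted p = 0.540, edgeR).

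The proteins that help receptors bind ligand were followed in a list of 7 co-receptors, of which 5 were tested. The counts of this list and those that follow stand beside 4.05% of all genes tested called lower and 3.7% called higher between the biotin groups. Between biotin-positive and biotin-negative libraries 1 was called higher and 2 lower. Cd14, which passes lipopolysaccharide and lipoproteins to the receptors, averaged 1.27 ± 1.08 CPM in biotin-positive against 20.5 ± 16.6 CPM in biotin-negative libraries (SD, n = 6 each; adjusted p = 0.0154, edgeR). Cd36, a scavenger receptor that aids the TLR2 and TLR6 pair, averaged 0.0219 ± 0.0537 CPM in biotin-positive against 5.11 ± 5.90 CPM in biotin-negative libraries (adjusted p = 0.0135, edgeR). It reached at most 0.131 CPM in biotin-positive and 0 in Cd40-null libraries, so it entered the test only through biotin-negative ones, and limma voom did not call it. Grn, whose product progranulin assists delivery of CpG DNA to TLR9, was higher (log2 0.56, SE 0.11, adjusted p = 0.00535, edgeR), and Ly96, the MD-2 subunit of the lipopolysaccharide receptor, was not called (log2 -0.38, SE 0.23).

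Of 7 chaperones and trafficking factors, 1 was lower and 0 higher in biotin-positive libraries. Unc93b1, the carrier of the endosomal receptors, averaged 163 ± 27.9 CPM in biotin-positive against 228 ± 43.0 CPM in biotin-negative libraries (SD, n = 6 each; log2 -0.49, SE 0.14, adjusted p = 0.0367, edgeR). The folding factors Cnpy3 (log2 -0.39), Cnpy4 (-0.39) and Hsp90b1 (-0.25), the cargo receptor Tmed7 (-0.06), the adaptor subunit Ap3b1 (0.27) and the endosomal transporter Slc15a4 (0.53) were not called. Of 6 proteases known to cut endosomal receptors, cathepsin B, Ctsb, was 2.23-fold higher and cathepsin S, Ctss, lower (log2 -0.32, SE 0.08, adjusted p = 0.0169, edgeR).

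Of 6 adaptors, 1 was lower and 0 higher in biotin-positive libraries. Pik3ap1, or BCAP, which links receptors to phosphoinositide 3-kinase, averaged 8.10 ± 4.26 CPM in biotin-positive against 24.5 ± 11.2 CPM in biotin-negative libraries (SD, n = 6 each; log2 -1.59, SE 0.42, adjusted p = 0.0256, edgeR). Myd88, the adaptor of most receptors, averaged 42.6 ± 8.65 CPM in biotin-positive against 37.8 ± 16.6 CPM in biotin-negative libraries (SD, n = 6 each; log2 0.17, SE 0.26) and was not called. The bridging adaptors Tirap (log2 -0.15) and Ticam2 (-0.64), the TRIF gene Ticam1 (-0.09) and Sarm1 (1.25) were not called either.

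Downstream of the adaptors, 2 of 23 kinases and ubiquitin ligases were higher and 0 lower in biotin-positive libraries. They were the IkB kinase subunit Ikbkb (log2 0.48, SE 0.11, adjusted p = 0.0122, edgeR) and the TAK1-binding Tab2 (log2 0.75, SE 0.20, adjusted p = 0.0259, edgeR), while DESeq2 called 4, adding Tank and Sharpin. Of 10 transcription factors 3 were higher and 1 lower. Irf5 was 1.73-fold, Irf8 2.29-fold and Irf1 1.61-fold higher, and Irf7, which drives type I interferon genes, averaged 4.96 ± 4.79 CPM in biotin-positive against 44.3 ± 32.3 CPM in biotin-negative libraries (SD, n = 6 each; adjusted p = 0.00498, edgeR).

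Of 14 inhibitors of the pathway, 1 was higher and 2 lower in biotin-positive libraries. Trafd1 was higher (log2 0.49, SE 0.10), and Irak3, a kinase-like brake on MyD88 signalling, averaged 20.2 ± 8.18 CPM in biotin-positive against 41.1 ± 8.47 CPM in biotin-negative libraries (SD, n = 6 each; log2 -1.03, adjusted p = 0.0275, edgeR). Tnip3, a binding partner of the deubiquitinase A20, was also lower (log2 -1.73, SE 0.42). Of 25 response genes 21 were tested, with 0 higher and 7 lower: Il1b, Il1a, Il12a, Cxcl10, Ccl5, Ptgs2 and Nfkbiz. Limma voom called 4 of them lower, Il1b, Il12a, Ccl5 and Nfkbiz. Il12a reached at most 0.460 CPM in biotin-positive libraries, under the low-count cutoff of 0.529 CPM. It therefore entered the test only through the other groups. Il1b, an inflammatory cytokine, averaged 4.84 ± 4.79 CPM in biotin-positive against 102 ± 69.4 CPM in biotin-negative libraries (SD, n = 6 each; adjusted p = 0.00429, edgeR). Nfkbiz averaged 37.9 ± 11.2 CPM in biotin-positive against 113 ± 31.0 CPM in biotin-negative libraries (log2 -1.57, SE 0.22).

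Median log2 fold changes were -0.38 for co-receptors, -0.25 for chaperones, -0.08 for proteases, -0.12 for adaptors, 0.22 for kinases and ligases, 0.11 for transcription factors, 0.02 for inhibitors and -1.19 for response genes, beside -0.03 for all genes tested. Of 11 other pattern sensors, 0 were higher and 2 lower in biotin-positive libraries, the nucleic acid sensor Zbp1 (log2 -1.24, SE 0.26) and the peptidoglycan sensor Nod1 (log2 -2.10, SE 0.53). Limma voom called Zbp1 and the DNA sensor Aim2 lower but not Nod1. Against the 2 Cd40-null libraries, edgeR called Ctsb, Irf5, Tnfaip3 and Cd86 higher and Il12a, Ccl5 and Nod1 lower in biotin-positive libraries. Tested were 6 proteases (Ctsb), 10 transcription factors (Irf5), 14 inhibitors (Tnfaip3), 21 response genes (Cd86, Il12a, Ccl5) and 11 sensors (Nod1). Also tested, with 0 calls, were 5 co-receptors, 7 chaperones and trafficking factors, 6 adaptors and 23 kinases and ligases. Over all genes tested, 1.22% were called higher and 1.05% lower there. Of the 21 response genes, 2, Nfkbiz and Cd86, were called higher in biotin-negative than in Cd40-null libraries (edgeR). The other pathway lists and the sensors held 0 calls there, beside 0.274% of all genes called higher and 0.0422% lower.

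**Figure D4:**
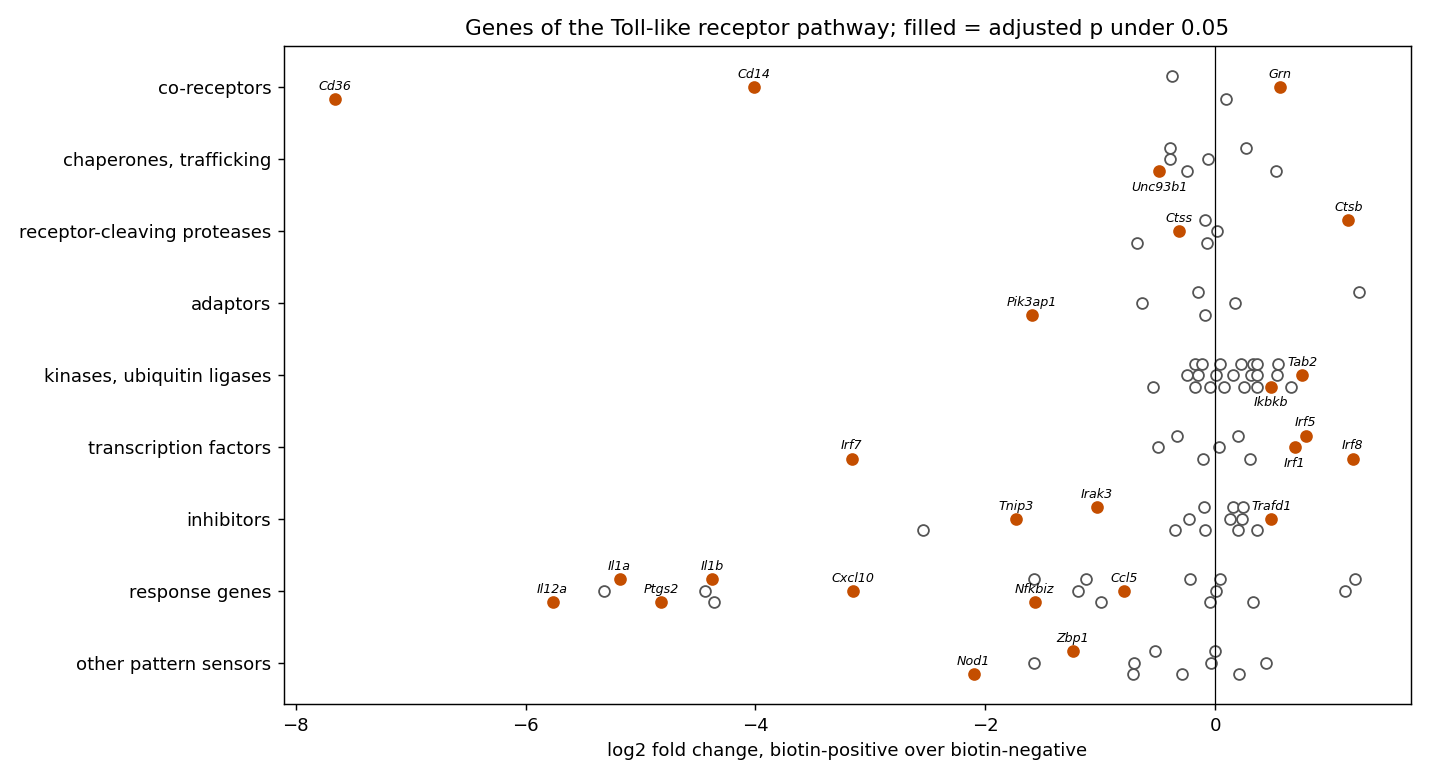
Log2 fold change of biotin-positive over biotin-negative libraries (x axis) for tested genes of the Toll-like receptor pathway, by role (y axis); filled, named points have an adjusted p under 0.05. The 7 filled response genes all lie below 0, while both filled kinases and ligases, Ikbkb at 0.48 and Tab2 at 0.75, lie above it.

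Marker lists of some other cell types differed between the biotin groups, and others held few or no calls. Of 20 monocyte and macrophage markers, 0 were higher and 11 lower in biotin-positive libraries, and their summed level was 106 to 263 CPM in biotin-positive, 304 to 1369 CPM in biotin-negative and 356 to 531 CPM in Cd40-null libraries. Mrc1, among those 11, was at 0 in all biotin-positive and Cd40-null libraries, so it entered the test only through biotin-negative ones. The 11 are calls by edgeR, while DESeq2 called 14 lower and limma voom 8.

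Plasmacytoid dendritic cells express Tlr7 and Tlr9, and their 10 markers summed to 99.0 to 256 CPM in biotin-positive, 257 to 568.2 CPM in biotin-negative and 347 to 407 CPM in Cd40-null libraries. Of the 8 tested, 1, Spib, was called lower in biotin-positive libraries. Spib stood at 23.8 to 107 CPM in biotin-positive against 142 to 419 CPM in biotin-negative libraries, while the median log2 fold change over the 8 was 0.10. The 10 type 1 dendritic cell markers summed to 70.4 to 96.5 CPM in biotin-positive, 79.6 to 167 CPM in biotin-negative and 88.8 to 102 CPM in Cd40-null libraries. Of 9 tested, 1, Naaa, was called lower in biotin-positive libraries by edgeR. DESeq2 called Wdfy4 and Naaa lower, and limma voom called the same 2 lower and Itgae higher. Clec9a was at 0 in biotin-positive and Cd40-null libraries. The 5 Langerhans cell markers ran the other way, at 337 to 513 CPM in biotin-positive, 59.1 to 163 CPM in biotin-negative and 133 to 165 CPM in Cd40-null libraries, with 3 called higher. The sort was for CD11b-positive, XCR1-negative cells, a gate that leaves out typical type 1 and plasmacytoid dendritic cells. The part of plasmacytoid, type 1 and Langerhans cell markers in the receptor results was not tested.

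The 10 type 2 dendritic cell markers summed to 154 to 326 CPM in biotin-positive, 441 to 642 CPM in biotin-negative and 459 to 464 CPM in Cd40-null libraries, with 5 called lower, and their part was not tested. Clec10a, among those 5, was at 0 in all biotin-positive libraries, so it entered the test only through the other groups. DESeq2 called the same 5 lower and 1, Cd24a, higher, and limma voom called 3 lower. T cell markers summed to 5.63 to 32.9 CPM in biotin-positive, 3.54 to 73.1 CPM in biotin-negative and 20.3 to 106 CPM in Cd40-null libraries, with 0 of 10 called between the biotin groups by edgeR and 1, Cd5, called higher in biotin-positive libraries by DESeq2. Their median log2 fold change was 1.80, and their mean log2 CPM, the covariate of the T cell fit, had medians of -0.05 in biotin-positive, -1.23 in biotin-negative and 1.02 in Cd40-null libraries. Neutrophil markers summed to 15.01 to 21.0 CPM in biotin-positive, 25.6 to 35.4 CPM in biotin-negative and 18.6 to 21.5 CPM in Cd40-null libraries, with 1 of 2 tested, Cxcr2, called lower, and their part was not tested. B cell markers, from cells that also express Tlr9, summed to 5.13 to 97.9 CPM in biotin-positive, 9.86 to 49.2 CPM in biotin-negative and 6.40 to 68.3 CPM in Cd40-null libraries, and 0 of 9 tested were called between the biotin groups (edgeR). Of 3 natural killer cell markers tested, 0 were called between them (edgeR).

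**Figure D5:**
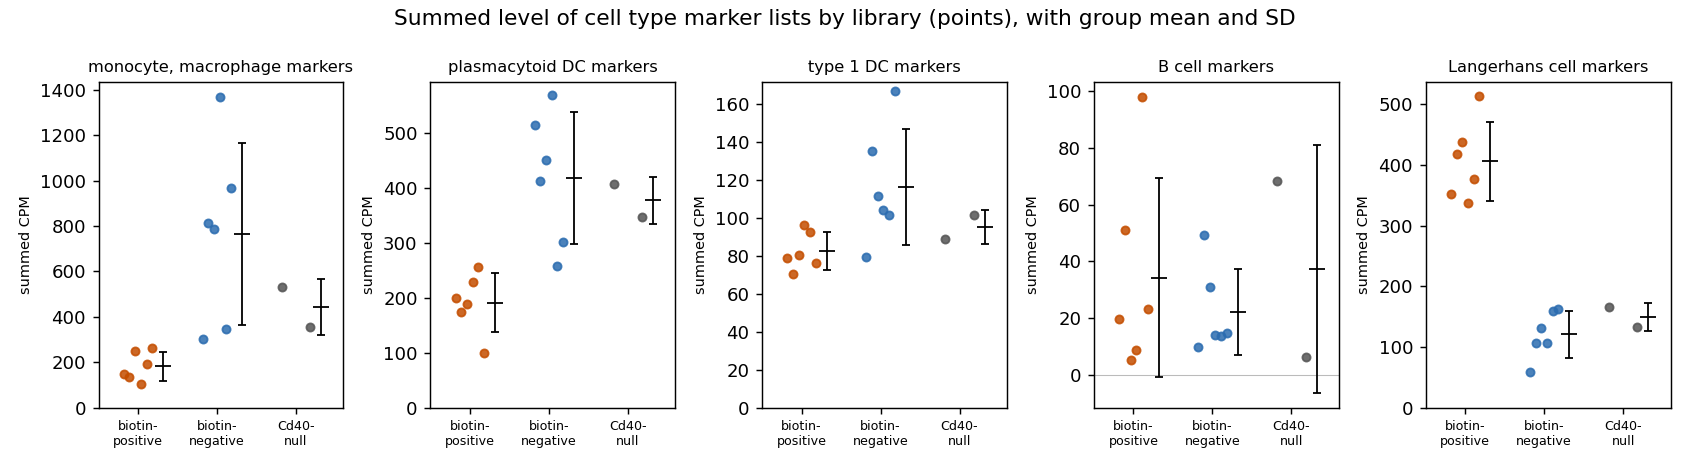
Summed CPM (y axis) of marker lists for 5 cell types in each library (points) of biotin-positive, biotin-negative and Cd40-null cells (x axis), with the group mean and SD as a bar. Monocyte and macrophage markers reach 263 CPM in biotin-positive against 1369 CPM in biotin-negative libraries, while Langerhans cell markers start at 337 CPM in biotin-positive libraries, above the biotin-negative maximum of 163 CPM.

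Across the 14 libraries, the genes whose log2 CPM was most like that of Tlr11, among 9376 genes with a mean of at least 5 CPM, were Actg1 (Pearson r 0.93), Ifi27l2a (0.91), Grap (0.89), Car2 (0.89) and Dpy19l1 (0.89). With each group centred on its own mean, r was 0.78 for Actg1, 0.72 for Ifi27l2a, 0.71 for Grap, 0.75 for Car2 and 0.62 for Dpy19l1. Actg1 encodes a cytoplasmic actin and Car2 a carbonic anhydrase. These are descriptions over libraries that share depth scaling and group structure.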

How the data were processed

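Per the submitters' processing notes, Bowtie2 2.1.0, RSEM 1.2.8, DESeq2 1.16.0 and the mouse build mm10 were used; the role of each tool, the annotation and the strand setting are not given in the sources used here. A table of RSEM expected counts, all whole numbers, was deposited for 23420 symbols. The authors also deposited a normalized signal for 10321 genes, which holds 8 of the receptors. Groups came from the sample labels.

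The counts, rounded, were tested in R 4.3.3 with edgeR 4.0.16. The low-count filter (filterByExpr, min.count 10) left 14217 genes, all 10 receptors included, and Tlr8 passed it only through biotin-negative libraries. All 14 libraries entered 1 quasi-likelihood fit with TMM scaling, two-sided, Benjamini-Hochberg adjusted over all genes at 0.05. Standard errors were derived from each log2 fold change and its F statistic. The steps were tested on simulated counts.

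Library depth was 14518099 to 33260704 counts. A limit for a group at 0 is 3 counts over its libraries and covers counting error only, since reads carry no molecular identifiers. Levels per kilobase use exon lengths of the GRCm38 annotation. Alternatives were other scalings and filters, DESeq2 1.42.0, limma 3.58.1, covariates, the replicate block and each library left out in turn. Named pathway genes were up to 4 per list with the smallest p, with all adaptors and chaperones. The receptors, lists and rules were chosen with earlier results of these data known.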

Additional observations from a re-analysis of the deposited data

Results flagged for a closer look

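Within groups of 6 libraries, 4 of 19 tested sets of receptor levels held 1 library far from the others, where chance flags about 1 in 20 groups of normally spread values. That rate does not hold for receptors at 0 in some libraries, and all 4 are of this kind. Tlr7 stood at 3.12 CPM in biotin-positive replicate 2 and at 0 in the other 5 biotin-positive libraries. Tlr7 also stood at 9.17 CPM in biotin-negative replicate 2, against at most 1.86 CPM in the others of that group. Tlr3 stood at 2.90 CPM in biotin-negative replicate 2, against at most 0.465 CPM in the others. Tlr4 stood at 6.46 CPM in biotin-negative replicate 1, against at most 1.89 CPM in the others.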

How the results depend on the processing

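The count of receptors called lower in biotin-positive than in biotin-negative libraries was 2. It was 1 with the replicate block (Tlr1 at log2 -0.91, adjusted p = 0.0866, edgeR), 0 with detected genes as covariate, 0 with the monocyte and macrophage marker level and 1 with the T cell marker level, and 2 to 3 with each library left out. Calls over all genes also dropped under these covariates, to 6 higher and 5 lower with detected genes, 57 and 34 with monocyte and macrophage markers, and 318 and 263 with T cell markers. Same-numbered deviations of the biotin groups correlated at -0.0226 to 0.0132, and no combination of numbers exceeded 0.0381. With correlations this low throughout, whether replicate numbers pair the samples cannot be told. Against Cd40-null libraries 0 receptors were called in biotin-positive ones, 1 with DESeq2 and 0 to 1 with each library left out; biotin-negative against Cd40-null gave 0 under each alternative run.

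Over the log2 fold changes of all receptors, 27 of 397 values under alternatives other than leaving out a library changed sign, and 16 of 406 with 1 library left out; none of these was called, and the cause was not tested. For biotin-positive over biotin-negative, the detected-gene covariate gave -0.52 for Tlr2, -3.67 for Tlr3, 5.79 for Tlr4 and 0.0439 for Tlr6. The T cell covariate gave -0.0921 for Tlr2, 0.50 for Tlr4 and 0.80 for Tlr7. The monocyte and macrophage covariate gave 0.28 for Tlr6 and 0.13 for Tlr13. Tlr6 stood at 0.29 with limma voom, 0.15 with limma on the deposited signal and 0.27 with the replicate block.

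For biotin-positive over Cd40-null, Tlr3 stood at -0.20 with limma voom, -0.21 with limma on the deposited signal and -0.14 with the detected-gene covariate, Tlr4 at -0.44 with the replicate block and Tlr9 at -0.0485 with the T cell covariate. For biotin-negative over Cd40-null, the detected-gene covariate gave 3.53 for Tlr3, -1.93 for Tlr4, 2.82 for Tlr7 and -0.0552 for Tlr11. The T cell covariate gave 0.70 for Tlr3 and -0.27 for Tlr11, and the monocyte and macrophage covariate -0.0549 for Tlr1. Tlr7 stood at 0.60 with limma voom, 0.29 with limma on the deposited signal and 4.64 with the replicate block.

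With each library left out, values ran from -0.45 to 0.19 for Tlr6 and -0.22 to 0.0183 for Tlr13 (biotin-positive over biotin-negative). Over Cd40-null they ran in biotin-positive libraries from -0.0610 to 1.97 for Tlr3, -0.41 to 2.56 for Tlr6, -8.59 to 6.44 for Tlr7 and -0.23 to 1.38 for Tlr9. In biotin-negative libraries they ran from -3.40 to 0.44 for Tlr3, -0.20 to 2.78 for Tlr6, -1.49 to 8.52 for Tlr7 and -0.23 to 0.61 for Tlr11. Without a low-count filter Tlr8 was called between the biotin groups (adjusted p = 0.0348, edgeR). The median over the receptors, biotin-positive over biotin-negative, ran from -0.93 to -0.58 with each library left out and was -0.48 over the 8 receptors of the deposited signal and -1.12 with detected genes as covariate. Low counts limit Tlr3, Tlr4, Tlr7 and Tlr8, and 2 libraries limit the Cd40-null group.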
